A study of Mus musculus with 7 samples.

Results

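Heat shock proteins of the cytosol and of mitochondria were followed in mouse retinal explants in which Setd1a, also called Kmt2f and coding for a histone H3 lysine 4 methyltransferase, was targeted by a short hairpin RNA. The set holds 10 genes, taken by symbol alone: Hspa8, Hspa4, Hsph1, Hsp90aa1, Hsp90ab1, Dnaja1, Dnajb1, Hspd1, Hspe1 and Hspa9. They are 10 of 16143 genes and 55 of 55404 transcripts in the tables, and all 10 passed the filter of 1 TPM or more in 3 or more libraries, TPM being a transcript's length-scaled share of its library. The 4 shKmt2f libraries came from ICR mouse retinas electroporated with a plasmid that expresses the hairpin, and the 3 control libraries from ICR retinas electroporated with a control plasmid, whose insert the labels do not name. Both groups were taken at embryonic day 17.5, received an EGFP plasmid as well, were cultured on filters for 2 days at 34 °C, and were dissociated and sorted for EGFP. The sort marks cells that took up plasmid and not a cell type. RNA, 1 ng per library, went into SMART-Seq v4 cDNA synthesis. The labels do not say whether a group's libraries are separate animals, cultures or repeats of 1 sample, so p-values reflect library-to-library spread that can be technical.

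Molecular chaperones bind unfolded protein and let it fold, assemble or be handed on. In the cytosol, J-domain proteins load clients onto Hsp70, Hsp110 proteins exchange its nucleotide, and Hsp90 takes over kinases and receptors. In mitochondria, mortalin pulls preproteins in and the Hsp60 chamber with its Hsp10 lid folds them. Heat shock factor 1 drives many of these genes from heat shock elements, inverted repeats of GAA, and several are also expressed at high levels in unstressed growing cells.

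Promoters are shown first, because Hsph1, Dnaja1 and Hspd1 are textbook targets of heat shock factor 1 and 2 of the genes, Hspd1 and Hspe1, stand head to head. RefSeq windows on GRCm38.p6 from 250 bases before to 50 bases after the annotated start were found for 6 of the 10 genes, in 11 windows. Each was searched for TTCNNGAA and GAANNTTC, 2 orientations of the inverted repeat, each of which reads the same on both strands and which can overlap. Windows of 4 genes held a match: Hspd1, Hspe1, Hsph1 and Dnaja1. Among all 27025 genes with a window, 17.0% held one, and among all 32851 windows 15.1%. The Hspe1 window, chr1:55087898-55088197 on the plus strand, holds 3 overlapping matches in 1 run of 18 bases, 89 to 72 bases before the start. The same bases, read on the minus strand, lie 144 to 127 bases before 1 of the 2 Hspd1 starts. The Hsph1 window, chr5:149636266-149636565 on the minus strand, holds a match 54 to 47 bases before the start and a run of 2 overlapping matches at bases 16 to 28 of the transcript. The Dnaja1 window, chr4:40722218-40722517 on the plus strand, holds 1 match, 124 to 117 bases before the start, and the other 2 Dnaja1 windows hold none. The Hspa4 window, chr11:53300430-53300729 on the minus strand, and both Dnajb1 windows hold no run of these letters. The 4 windows below run 5′ to 3′ with the matches in capitals. Hspe1 and Hsph1 show the densest matches, Dnaja1 shows a single match, in 1 of the 3 windows of a gene called higher, and Hspa4 shows a gene called higher without one.
Hspe1 promoter: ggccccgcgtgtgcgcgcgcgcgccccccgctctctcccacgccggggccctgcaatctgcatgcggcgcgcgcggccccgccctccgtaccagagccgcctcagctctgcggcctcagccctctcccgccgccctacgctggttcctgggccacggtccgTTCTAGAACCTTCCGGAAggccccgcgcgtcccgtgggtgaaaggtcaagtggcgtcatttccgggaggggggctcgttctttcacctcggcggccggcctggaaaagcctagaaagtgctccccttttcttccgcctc
Hsph1 promoter: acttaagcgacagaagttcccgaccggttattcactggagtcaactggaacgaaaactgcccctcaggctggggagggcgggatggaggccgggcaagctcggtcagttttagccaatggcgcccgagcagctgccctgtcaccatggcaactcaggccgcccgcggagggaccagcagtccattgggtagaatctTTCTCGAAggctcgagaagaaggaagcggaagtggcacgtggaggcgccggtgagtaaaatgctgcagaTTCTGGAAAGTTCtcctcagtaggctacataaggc
Dnaja1 promoter: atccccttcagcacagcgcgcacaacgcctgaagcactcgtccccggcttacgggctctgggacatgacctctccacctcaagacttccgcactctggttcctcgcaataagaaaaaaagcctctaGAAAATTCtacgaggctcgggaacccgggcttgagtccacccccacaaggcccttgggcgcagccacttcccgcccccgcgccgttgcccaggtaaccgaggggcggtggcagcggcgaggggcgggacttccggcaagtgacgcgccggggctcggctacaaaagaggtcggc
Hspa4 promoter: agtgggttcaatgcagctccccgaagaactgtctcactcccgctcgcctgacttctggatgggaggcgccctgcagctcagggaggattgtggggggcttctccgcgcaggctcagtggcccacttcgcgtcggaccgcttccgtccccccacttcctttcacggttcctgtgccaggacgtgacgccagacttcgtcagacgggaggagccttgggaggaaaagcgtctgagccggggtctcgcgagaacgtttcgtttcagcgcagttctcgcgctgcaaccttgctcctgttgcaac
A match is only a run of letters and says nothing of binding.

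The hairpin was checked on Setd1a itself. The longest listed transcript, of 6487 bases, had 0.407, 0.328, 0.374 and 0.432 TPM in shKmt2f libraries 1 to 4 and 0.767, 0.959 and 0.764 TPM in control libraries 1 to 3. It was under 1 TPM in every library, and so below the filter used for the other tests. The groups did not overlap (exact permutation test, two-sided, p = 0.0286, the smallest that 35 splits of 7 libraries allow). Summed over all listed transcripts, among them short ones, Setd1a had 6.94 ± 1.71 TPM in shKmt2f libraries (SD, n = 4) and 8.95 ± 2.36 TPM in control libraries (SD, n = 3), and the groups overlapped (exact permutation p = 0.400). Control replicate 2 lay nearer the shKmt2f libraries than the other controls did. Across the 12456 tested genes, which are not independent replicates, it correlated at 0.970 to 0.978 with the 4 shKmt2f libraries. Control replicates 1 and 3 correlated with those libraries at 0.945 to 0.961. Control replicate 2 also correlated at 0.973 with control replicate 1 and at 0.967 with control replicate 3, so it stood close to both groups. The slope of a gene's deviation on GC content was between -0.0181 and -0.0118 log2 units per percent in shKmt2f libraries, and it was 0.0246, -0.00435 and 0.0407 in control replicates 1, 2 and 3. Calls of single genes are therefore also given without control replicate 2. That library was picked from these same values for its likeness to the shKmt2f libraries, so leaving it out tends to widen differences. Over all genes, the part called higher then went from 10.4% to 19.6%. Calls and p-values without it are given as values and are no support for a difference. Beside the marker counts that follow, 10.4% of all genes were called higher and 3.69% lower. Of the marker lists, ganglion cell genes summed to 31.5 to 38.7 TPM in shKmt2f libraries and 14.7 to 21.7 TPM in control libraries. Of the 8 ganglion cell genes 4 were tested, and all 4 were called higher. Nefl, at 1.68 to 2.46 TPM in shKmt2f libraries and 0.506 to 1.17 TPM in control libraries, passed the filter only through the shKmt2f libraries. Pou4f1, Pou4f2, Rbpms and Sncg were under the filter. Photoreceptor precursor genes summed to 683 to 911 TPM in shKmt2f libraries and 439 to 549 TPM in control libraries, most of it Otx2, which averaged 558 TPM in shKmt2f libraries and 370.1 TPM in control libraries. Of the 8 photoreceptor genes 3 were called higher, Crx, Otx2 and Prdm1, and 4 had a log2 fold change below 0. Progenitor genes summed to 688 to 819 TPM in shKmt2f libraries and 887 to 1054 TPM in control libraries, with 2 of 10 called lower, Hes5 and Ccnd1, and the sums of both groups show the labelled tissue. Amacrine and horizontal cell genes summed to 105 to 115 TPM in shKmt2f libraries and 81.2 to 96.5 TPM in control libraries, with 2 of 6 tested called higher. Of these, Onecut1, at 1.14 to 2.13 TPM in shKmt2f libraries and 0.393 to 0.861 TPM in control libraries, passed the filter only through the shKmt2f libraries. Endothelial and mural genes summed to 73.8 to 110 TPM in shKmt2f libraries and 62.8 to 106 TPM in control libraries. Most of that was Kdr, which averaged 66.6 TPM in shKmt2f libraries and 61.0 TPM in control libraries, and Cldn5. Pecam1 reached at most 0.160 TPM and Pdgfrb 1.66 TPM in any library, and Cdh5 and Rgs5 are not listed. Lens, microglial and astrocyte genes summed to at most 1.75 TPM in any library, pigment epithelial genes to at most 8.15 TPM, and red blood cell genes are not listed. The part that GC content or cell makeup has in the values below was not tested. In sorted bulk RNA, more cells of a type and more RNA per cell cannot be told apart.

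Of the 10 heat shock protein genes, 4 were higher in shKmt2f libraries by limma at a Benjamini-Hochberg adjusted p under 0.05, namely Hspa4, Hspd1, Dnaja1 and Hspa9, and 0 were lower. Of all 12456 genes tested, 10.4% were called higher and 3.69% lower. At an unadjusted p under 0.05, 6 of the 10 were higher and 0 lower, beside 23.2% and 9.14% of all genes. The median log2 fold change, on the log2(TPM + 1) scale and always shKmt2f minus control, was 0.50 for the 10 genes and 0.088 for all genes tested. For 5 of the 10, Hsph1 being the fifth, every shKmt2f library lay above every control library, against 19.2% of all genes, and for 0 of the 10 below, against 9.67%. The sum over the 10 genes was 3424, 3243, 3188 and 3108 TPM in shKmt2f libraries 1 to 4, and 2186, 3057 and 2463 TPM in control libraries 1 to 3. Control replicate 2 thus lay just under the lowest shKmt2f library and well above the other controls.

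Control replicate 2 held the highest control value for 7 of the 10 genes and lay within the shKmt2f range for 3 of them, Hspa8, Hsp90aa1 and Hspe1. All 4 shKmt2f libraries exceeded control replicates 1 and 3 for 7 genes, against 30.4% of all genes. Without control replicate 2, limma called 6 of the 10 higher, Hsp90aa1 and Hsph1 joining, and 0 lower, against 19.6% and 4.70% of all genes. Leaving out any other single library left 0 of the 10 called. Under median-ratio scaling of the libraries, which took the median fold change of all genes to -0.022, limma called 0 of the 10. The fold changes of the 4 called genes were then 0.37 to 0.81, with adjusted p between 0.0525 and 0.0976.

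**Figure D1:**
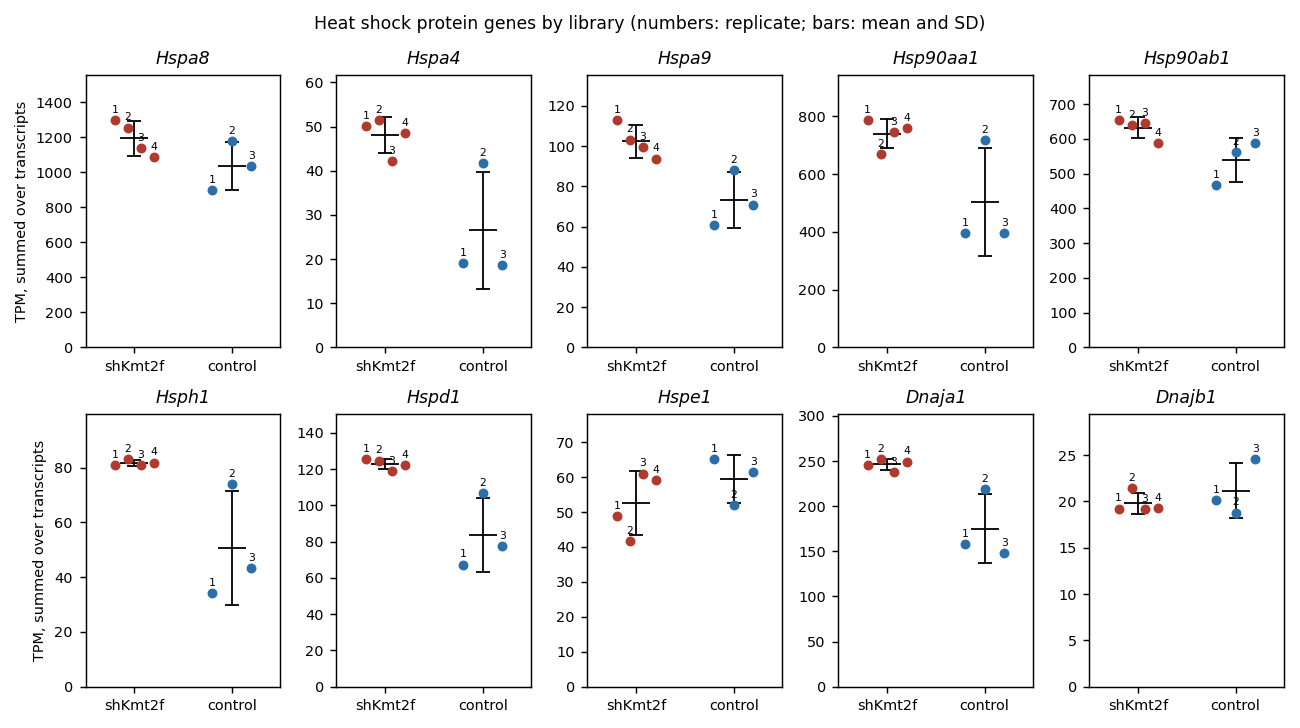
TPM of each of the 10 genes, summed over transcripts (vertical axis from 0), in the 4 shKmt2f and 3 control libraries, with 1 point per library numbered by replicate and bars for mean and SD. Control replicate 2 is the highest control for 7 genes, and every shKmt2f point lies above every control point for Hspa4, Hspa9, Hsph1, Hspd1 and Dnaja1.

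The cytosolic Hsp70 and Hsp110 proteins come first by role. Hspa8, the constitutive Hsp70 Hsc70, lies at chr9:40800984-40810087 on the plus strand (GRCm38.p6, as all positions here). It was the highest of the 10 in every library, with 1299, 1256, 1138 and 1086 TPM in shKmt2f libraries and 897, 1177 and 1035 TPM in control libraries. The ranges overlapped through control replicate 2, and the difference on the log2 scale was 0.21 (limma adjusted p = 0.256, SE 0.12). Without control replicate 2 it was 0.31 (limma adjusted p = 0.0946). Only 12.3 to 13.4% of Hspa8 TPM was assigned to protein-coding transcripts in any library. A processed transcript of 727 bases, ENSMUST00000153847.1, led instead, with 453, 438, 392 and 397 TPM in shKmt2f libraries and 296, 438 and 367 TPM in control libraries. Reads may also have been shared with 5 processed pseudogenes that match Hspa8 over 50% or more of their length at 90% identity or more. The copy AC092404.2 on chromosome 5, 99.7% identical over 1941 bases, had 243, 247, 219 and 209.8 TPM in shKmt2f libraries and 169, 229 and 200.2 TPM in control libraries, and control replicate 2 lay within the shKmt2f range there too.

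Hspa4, an Hsp110 protein that acts as a nucleotide exchange factor for Hsp70, lies at chr11:53259814-53300457 on the minus strand. It had 50.1, 51.5, 42.3 and 48.5 TPM in shKmt2f libraries, against 19.0, 41.8 and 18.7 TPM in control libraries. The lowest shKmt2f library stood just above control replicate 2, and control replicates 1 and 3 were both far below. Hspa4 rose by 0.93 on the log2 scale (limma adjusted p = 0.0469, SE 0.26), the largest fold change of the 10. Without control replicate 2 the fold change was 1.30 (limma adjusted p = 0.000669), and with any other library left out the call was lost. Its protein-coding transcript of 4618 bases carried 20.4 ± 1.9% of its TPM in shKmt2f libraries (SD, n = 4) and 25.3 ± 1.7% in control libraries (SD, n = 3). That share was lower in every shKmt2f library than in any control library, and the difference of -4.91 points had an exact permutation p = 0.0571, or 0.286 after Benjamini-Hochberg adjustment over the 10 genes. The rest lay in a retained-intron transcript of 630 bases and a processed transcript of 3075 bases. Over protein-coding transcripts alone the fold change of Hspa4 was 0.57 (limma adjusted p = 0.109), so the call did not hold there.

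Hsph1, the Hsp110 protein also called Hsp105, lies at chr5:149614287-149636376 on the minus strand. It had 81.0, 83.0, 80.9 and 81.8 TPM in shKmt2f libraries, against 34.1, 74.0 and 43.4 TPM in control libraries. The 4 shKmt2f libraries lay close together and all stood above the controls. At 0.76 on the log2 scale (SE 0.22), the difference missed limma's threshold over all libraries (adjusted p = 0.0555). It passed without control replicate 2, at 1.06 (limma adjusted p = 0.00122), and over protein-coding transcripts alone, at 0.62 (limma adjusted p = 0.0301). Its full-length protein-coding transcript of 3240 bases, with 15.9, 15.5, 16.5 and 17.4 TPM in shKmt2f libraries and 9.75, 14.1 and 8.45 TPM in control libraries, kept the same order of groups. The highest Hsph1 transcript was a processed one of 254 bases, with 50.3, 48.9, 42.9 and 42.1 TPM in shKmt2f libraries and 15.9, 42.9 and 23.8 TPM in control libraries.

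Hsp90 is coded by a stress-inducible and a constitutive gene, Hsp90aa1 and Hsp90ab1. Hsp90aa1, at chr12:110690605-110702728 on the minus strand, had 787, 669, 744 and 760 TPM in shKmt2f libraries, against 397, 718 and 395 TPM in control libraries. Control replicate 2 lay inside the shKmt2f range, and the other controls were far below it. At 0.61 on the log2 scale (SE 0.20), the difference missed limma's threshold (adjusted p = 0.0748), and without control replicate 2 it was 0.90 (limma adjusted p = 0.00119). Hsp90ab1, at chr17:45567775-45573271 on the minus strand, had 655, 640.4, 646 and 588 TPM in shKmt2f libraries, against 468, 563 and 589 TPM in control libraries. Here control replicate 3 was the highest control and reached the lowest shKmt2f library. Hsp90ab1 differed by 0.23 on the log2 scale (limma adjusted p = 0.166, SE 0.11), and 0.27 without control replicate 2 (limma adjusted p = 0.144).

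The transcripts of Hsp90aa1 did not move together. The protein-coding transcript of 711 bases that begins at the start of the gene had 113, 99.2, 99.7 and 95.3 TPM in shKmt2f libraries and 99.7, 104 and 110.0 TPM in control libraries. Those values overlap throughout, with a difference of -0.044 on the log2 scale (SE 0.096) that limma did not call. A retained-intron transcript of 325 bases, which spans bases 9548 to 10019 from the start of the gene, had 338, 285, 326 and 342 TPM in shKmt2f libraries, against 103, 304 and 88.2 TPM in control libraries. A retained-intron transcript of 487 bases, from 8436 to 9068, had 94.4, 75.6, 84.9 and 86.9 TPM in shKmt2f libraries, against 19.9, 70.3 and 12.2 TPM in control libraries. Both were low in control replicates 1 and 3, and the shorter one overlapped the shKmt2f range through control replicate 2. On the log2 scale they differed by 1.19 (limma adjusted p = 0.112, SE 0.38) and 1.67 (limma adjusted p = 0.0935, SE 0.49). The coding transcript of 2852 bases followed that pattern, with 58.1, 48.1, 52.6 and 54.6 TPM in shKmt2f libraries and 17.1, 52.0 and 9.57 TPM in control libraries. In contrast, the retained-intron transcript of 924 bases, from 7056 to 8553, had 107, 92.1, 99.9 and 112 TPM in shKmt2f libraries and 102, 108 and 94.1 TPM in control libraries. Protein-coding transcripts held 31.5, 32.3, 31.4 and 28.8% of Hsp90aa1 TPM in shKmt2f libraries, against 43.4, 32.9 and 50.7% in control libraries. Over protein-coding transcripts alone the difference was 0.18 on the log2 scale (limma adjusted p = 0.306). A pseudogene fragment, RP23-395G1.3, matching Hsp90aa1 at 91.8% identity over 256 bases, was likewise low in control replicates 1 and 3: it had 25.4, 15.8, 26.3 and 20.4 TPM in shKmt2f libraries, and 35.5 TPM in control replicate 2, while control replicates 1 and 3 list it at 0.

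**Figure D2:**
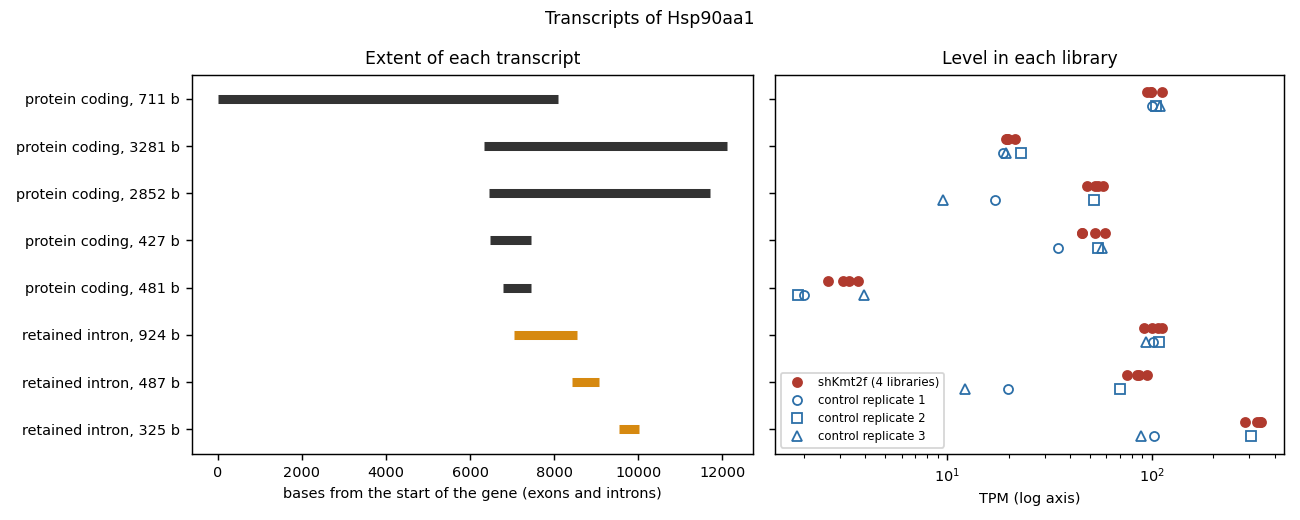
The 8 transcripts of Hsp90aa1, ordered by their first base: at left the stretch of the gene each one spans, in bases from the gene's start (dark, protein coding; orange, retained intron), and at right its TPM in each library on a log axis. Control replicates 1 and 3 fall far to the left of the other libraries for the coding transcript of 2852 bases and the retained-intron transcripts of 487 and 325 bases, lie among them for those of 711 and 924 bases, and lie just below them for that of 3281 bases.

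The J-domain proteins bring clients and ATP hydrolysis to Hsp70. Dnaja1, a type I J-domain protein at chr4:40722150-40737149 on the plus strand, had 246, 252, 238 and 249 TPM in shKmt2f libraries, against 158, 218 and 148 TPM in control libraries. No control reached the lowest shKmt2f library. Dnaja1 rose by 0.51 on the log2 scale (limma adjusted p = 0.0426, SE 0.14), and without control replicate 2 by 0.68 (limma adjusted p = 0.00194). Its full-length coding transcript of 3376 bases had 63.6, 63.3, 59.8 and 63.9 TPM in shKmt2f libraries and 31.2, 54.6 and 29.2 TPM in control libraries. The call held over protein-coding transcripts alone, at 0.58 (limma adjusted p = 0.0283). The near-identical copy AC107815.5 on chromosome 7, 99.4% identical over 1194 bases, had 81.8 to 96.9 TPM in shKmt2f libraries and 59.8, 79.5 and 52.2 TPM in control libraries. Added to its 2 matching pseudogenes, Dnaja1 kept its call, at 0.50 (limma adjusted p = 0.0415).

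Dnajb1, or Hsp40, a type II J-domain protein that heat strongly induces, lies at chr8:83608193-83612653 on the plus strand. It had 19.2, 21.4, 19.2 and 19.3 TPM in shKmt2f libraries and 20.2, 18.8 and 24.5 TPM in control libraries. The ranges overlapped, and the difference on the log2 scale was -0.085 (limma adjusted p = 0.698, SE 0.13). By TPM summed over all transcripts, Dnajb1 was the lowest of the 10 in every shKmt2f library. The sign of its difference was positive, at 0.021, without control replicate 3.

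In mitochondria, Hspd1 codes for Hsp60 and Hspe1 for its Hsp10 lid. Hspd1, at chr1:55077835-55088243 on the minus strand, had 125, 125, 119 and 122 TPM in shKmt2f libraries, against 67.3, 107 and 77.4 TPM in control libraries. The highest control, replicate 2, stayed under the lowest shKmt2f library. Hspd1 rose by 0.57 on the log2 scale (limma adjusted p = 0.0407, SE 0.15), and without control replicate 2 by 0.76 (limma adjusted p = 0.00203). All 3 of its listed transcripts are protein coding and none overlapped between the groups. Hspe1, at chr1:55088132-55091307 on the plus strand, had 48.7, 41.7, 61.0 and 59.1 TPM in shKmt2f libraries and 65.1, 52.0 and 61.3 TPM in control libraries. The ranges overlapped and the difference on the log2 scale was -0.18 (limma adjusted p = 0.461, SE 0.16), or -0.28 without control replicate 2 (limma adjusted p = 0.281). The annotated genes share 112 bases on opposite strands at their starts, and the sources used here do not say that strand was used, so reads there cannot be told apart. The pseudogene Hspe1-ps1, 94.9% identical to Hspe1 over 273 bases, had 29.2 and 21.1 TPM in shKmt2f libraries 1 and 2 and is listed at 0 in the other shKmt2f libraries, and had 17.5, 16.8 and 1.49 TPM in control libraries. Hspe1-ps3, at 89.2% identity, fell under the 90% limit for a match. It had 28.5, 34.2, 45.6 and 55.9 TPM in shKmt2f libraries and 81.9, 35.8 and 60.3 TPM in control libraries. Hspe1-ps6, at 88.4%, averaged 7.36 TPM in shKmt2f libraries and 8.86 TPM in control libraries. Hspa9, mortalin, the mitochondrial Hsp70, is not placed on the genome here. It had 113, 103, 99.6 and 93.8 TPM in shKmt2f libraries, against 60.6, 88.2 and 70.9 TPM in control libraries. The groups did not overlap, and Hspa9 rose by 0.49 on the log2 scale (limma adjusted p = 0.0495, SE 0.14), or by 0.63 without control replicate 2 (limma adjusted p = 0.00824).

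Hspd1 carries a doubt that the TPM of the gene does not show. A pseudogene fragment of 198 bases on chromosome 12, at chr12:26150316-26150513, matches the last 161 coding bases of Hspd1, bases 1559 to 1719 of the coding sequence, at 98.8% identity. It had 627, 585, 533 and 585 TPM in shKmt2f libraries, against 295, 538 and 363 TPM in control libraries, more than Hspd1 itself in every library. Gene and fragment have the same order of groups except that control replicate 2 lay above shKmt2f replicate 3 for the fragment. The fragment held 82.6% of their joint TPM. TPM is scaled by length and the fragment is short, so this is not its share of the reads. The joint log2 fold change was 0.59 (limma adjusted p = 0.0538, SE 0.18), beside 0.57 (SE 0.15) for Hspd1 alone. The call thus ended with a larger SE and not with a smaller difference. Over the matching stretch they differ at 2 bases, in capitals below, so reads from this stretch can hardly be told apart.
Hspd1, coding bases: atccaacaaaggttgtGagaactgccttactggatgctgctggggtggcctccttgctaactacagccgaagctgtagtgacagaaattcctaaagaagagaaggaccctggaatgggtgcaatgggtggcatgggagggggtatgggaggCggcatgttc
Pseudogene fragment: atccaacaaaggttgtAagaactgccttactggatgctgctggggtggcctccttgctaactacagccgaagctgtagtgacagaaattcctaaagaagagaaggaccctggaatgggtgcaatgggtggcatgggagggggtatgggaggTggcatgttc

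Summed over all transcripts, the levels kept nearly the same order in both groups. Protein-coding transcripts held 12.3 to 13.4% of Hspa8 TPM, 28.8 to 50.7% of Hsp90aa1 TPM and 79.2 to 82.8% of Hsp90ab1 TPM. The highest protein-coding transcript averaged 208 TPM for Hsp90ab1, 150 TPM for Hspa8 and 102 TPM for Hsp90aa1 in shKmt2f libraries. The order below is therefore that of the sums and not of coding transcripts. In shKmt2f libraries Hspa8 (1195 ± 99 TPM, SD, n = 4) stood over Hsp90aa1 (740.1 ± 50.4 TPM) and Hsp90ab1 (632 ± 29.9 TPM), then Dnaja1, Hspd1, Hspa9 and Hsph1, with Hspe1 (52.6 ± 9.0 TPM), Hspa4 (48.1 ± 4.1 TPM) and Dnajb1 (19.8 ± 1.1 TPM) last. In control libraries Hsp90ab1 (540 ± 63.7 TPM, SD, n = 3) stood over Hsp90aa1 (503 ± 186 TPM), and Hspe1 (59.5 ± 6.7 TPM) over Hsph1 (50.5 ± 20.8 TPM). In shKmt2f libraries the ranges of neighbours in this order overlapped only for Hspe1 and Hspa4. In control libraries they overlapped for every pair of neighbours except Hspa8 and Hsp90ab1, Hsp90aa1 and Dnaja1, and Dnaja1 and Hspd1, and in control replicates 1 and 3 Dnajb1 stood above Hspa4.

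**Figure D3:**
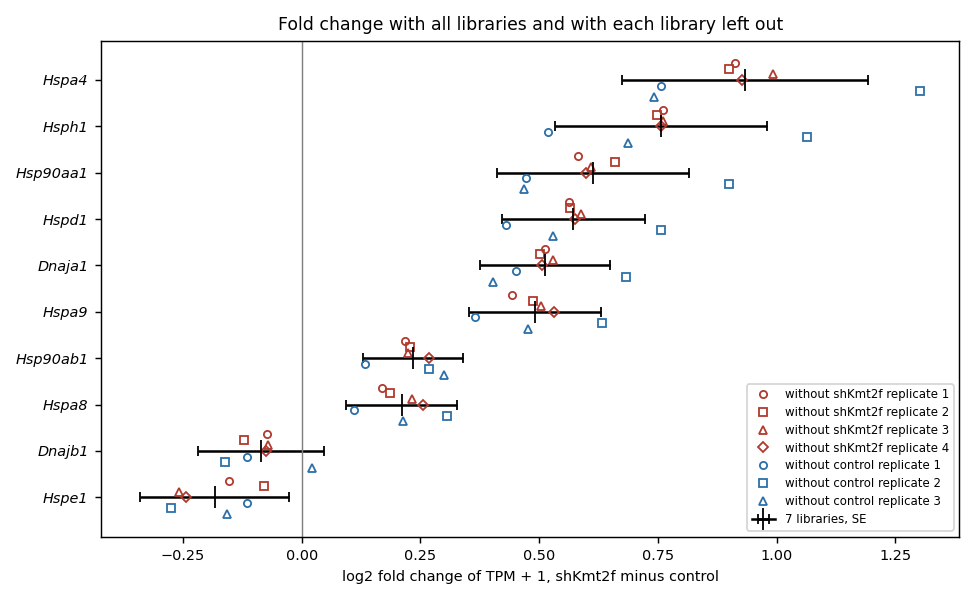
Log2 fold change of TPM + 1, shKmt2f minus control (horizontal axis), for each of the 10 genes, with all 7 libraries (black, with SE) and with each library left out (open symbols). Leaving out control replicate 2 gives the largest value for 7 of the genes, from Hspa8 at 0.31 to Hspa4 at 1.30, while Hspe1 and Dnajb1 stay near or below 0 in every case.

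Ratios between partners within a library do not depend on how the libraries were scaled, and 5 were compared. Dnajb1 relative to Dnaja1 was 0.0783, 0.0851, 0.0808 and 0.0773 in shKmt2f libraries, against 0.127, 0.0860 and 0.166 in control libraries. The groups did not overlap, though shKmt2f replicate 2 and control replicate 2 nearly met (exact permutation p = 0.0286, 0.0714 after adjustment over the 5). Hspa9 relative to Hspa8, the mitochondrial over the cytosolic Hsp70, was 0.0870, 0.0822, 0.0875 and 0.0863 in shKmt2f libraries, against 0.0676, 0.0750 and 0.0685 in control libraries. These groups did not overlap either, and control replicate 2 lay between the other controls and the lowest shKmt2f library (exact permutation p = 0.0286, adjusted 0.0714). Hspe1 relative to Hspd1, lid over chamber, was 0.389, 0.334, 0.513 and 0.484 in shKmt2f libraries, against 0.967, 0.488 and 0.793 in control libraries. Control replicate 2 lay among the shKmt2f libraries and the other controls above them (exact permutation p = 0.0571, adjusted 0.0952). Hsp90aa1 relative to Hsp90ab1 was 1.17 ± 0.10 in shKmt2f libraries (SD, n = 4) and 0.931 ± 0.311 in control libraries (SD, n = 3; exact permutation p = 0.171). Hsph1 relative to Hspa4 was 1.71 ± 0.14 in shKmt2f libraries (SD, n = 4) and 1.96 ± 0.31 in control libraries (SD, n = 3; exact permutation p = 0.171). After adjustment none of the 5 ratios passed.

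**Figure D4:**
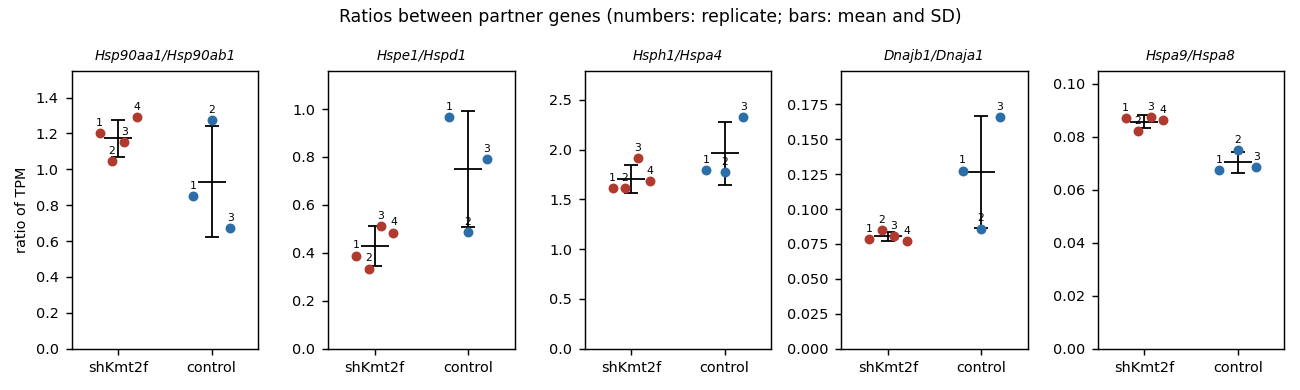
Ratio of TPM between partner genes (vertical axes from 0) in the 4 shKmt2f and 3 control libraries, with 1 numbered point per library and bars for mean and SD. The groups are apart for Dnajb1 over Dnaja1 and for Hspa9 over Hspa8, and control replicate 2 lies with the shKmt2f libraries for Hspe1 over Hspd1 and Hsp90aa1 over Hsp90ab1.

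Single transcripts were tested in their own limma fit over 37024 transcripts. Of the 55 transcripts of these genes, 46 passed the filter, 0 were called higher and 0 lower, against 1.44% and 0.794% of all transcripts. At an unadjusted p under 0.05, 18 of the 46 were higher and 0 lower, beside 16.8% and 6.6% of all transcripts, and the smallest adjusted p was 0.0716. The groups did not overlap for 14 of the 46, all higher, against 14.6% higher and 6.97% lower of all transcripts, and 4 of the 14 were Dnaja1 transcripts and 3 Hspd1 transcripts. Without control replicate 2, limma called 16 of the 46 higher and 0 lower, beside 10.2% and 1.69% of all transcripts. In the authors' deposited table, 2 of the 55 transcripts had a q under 0.05, against 3.43% higher and 2.09% lower over all transcripts. In the authors' deposited table these were the Hspa9 transcript ENSMUST00000025217.8, with an effect of 0.26, taken to be on the natural log scale, and q = 0.0480, and the Dnaja1 transcript ENSMUST00000129204.7, with 0.42 and q = 0.0497.

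The genes also differed in base composition. Weighted over their transcripts, Hspa4 had 43.0% GC, Hsph1 44.0%, Dnaja1 44.0% and Hsp90aa1 46.2%, and their log2 fold changes lay between 0.51 and 0.93. Hspa8 had 48.2% GC and Hspd1 48.9%, with log2 fold changes of 0.21 and 0.57. Hspe1 had 51.6% GC, Hsp90ab1 51.7% and Dnajb1 52.7%, with log2 fold changes of -0.18, 0.23 and -0.085. After each library was corrected for GC content and length, 0 of the 9 genes with a sequence here were called. Hspa4 then had 0.65 (limma adjusted p = 0.0676), Dnaja1 0.31 (limma adjusted p = 0.0674), Hspd1 0.56 (limma adjusted p = 0.0523) and Hspe1 -0.034 (limma adjusted p = 0.895). Hsph1 had 0.62 (limma adjusted p = 0.0833), Hsp90aa1 0.61 (limma adjusted p = 0.0796) and Hsp90ab1 0.36 (limma adjusted p = 0.0745). Hspa8 had 0.27 (limma adjusted p = 0.219) and Dnajb1 -0.065 (limma adjusted p = 0.690). The median of all genes was then 0.125, beside 0.088 without the correction.

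Around these genes, 107 further chaperone genes in 9 lists were counted in the gene-level fit, of which 94 were tested. Of the 94, 11 were called higher and 5 lower, beside 10.4% and 3.69% of all genes, and their median log2 fold change was 0.054, beside 0.088 for all genes. Under median-ratio scaling 6 were called higher and 7 lower. Calls of these genes also rested on few libraries: without control replicate 2 there were 23 higher, and without any 1 of the other libraries 1 or 2. Without control replicate 2, the library picked from these same data, the 16 called genes all kept their call (limma adjusted p between 0.000531 and 0.0488). Given how that library was picked, this is no support for the calls. Of the 16 genes, 15 lost their call without at least 1 other library. The exception, Cdc37l1, a relative of the Hsp90 kinase co-chaperone Cdc37, was called with each library left out in turn (limma adjusted p between 0.00135 and 0.0477) and in the other settings run. It had 73.8, 89.3, 73.4 and 82.9 TPM in shKmt2f libraries, against 39.5, 52.1 and 38.0 TPM in control libraries. The groups were well apart, control replicate 2 included, and Cdc37l1 rose by 0.88 on the log2 scale (limma adjusted p = 0.0129, SE 0.14), and by 1.02 without control replicate 2.

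Of 16 Hsp90 co-chaperones, 3 were called higher and 2 lower, beside 10.4% and 3.69% of all genes. The same shares of all genes stand beside the counts of each further list below. Chordc1, a heat-inducible Hsp90 partner, had 59.9, 60.5, 57.5 and 53.3 TPM in shKmt2f libraries, against 18.8, 37.3 and 22.8 TPM in control libraries, and rose by 1.16 (limma adjusted p = 0.0168, SE 0.21), and by 1.43 without control replicate 2. All shKmt2f libraries were above control replicate 2, the highest control, and the call was lost only without control replicate 3, shKmt2f replicate 1 or shKmt2f replicate 2. Ahsa2, a relative of the Hsp90 ATPase activator Ahsa1, rose by 0.64 (limma adjusted p = 0.0306), or 0.78 without control replicate 2, and was not called over protein-coding transcripts alone, at 0.55 (limma adjusted p = 0.0537). Pih1d1, of the R2TP complex that works with Hsp90, fell by 0.57 (limma adjusted p = 0.0205), or 0.56 without control replicate 2. Nudc, outside the rule for named genes and given because it completes the count, fell by 0.34 (limma adjusted p = 0.0439), or 0.38 without control replicate 2, and lost its call over protein-coding transcripts alone (-0.24, limma adjusted p = 0.124). Of 8 tested Hsp70 co-chaperones, St13, the Hsp70-interacting protein Hip, rose by 0.50 (limma adjusted p = 0.0389), or 0.64 without control replicate 2, and Bag2, which opposes the ligase Stub1, fell by 0.64 (limma adjusted p = 0.0307), or 0.60 without that library. Several of these calls ended after GC and length correction: Pih1d1 was then at -0.29 (limma adjusted p = 0.185), Nudc at -0.15 (limma adjusted p = 0.408), Bag2 at -0.43 (limma adjusted p = 0.0845) and St13 at 0.39 (limma adjusted p = 0.0571). Without the filter Nudc and St13 were not called either (limma adjusted p = 0.0537 and 0.0521), and under median-ratio scaling St13 was at 0.38 (limma adjusted p = 0.0887).

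Of 29 tested other J-domain genes, 4 were called higher and 0 lower, beside 10.4% and 3.69% of all genes. Dnajb6, an inhibitor of protein aggregation, had 759, 884, 919.8 and 785 TPM in shKmt2f libraries, against 502, 698 and 485 TPM in control libraries, and rose by 0.59 (limma adjusted p = 0.0350, SE 0.14), or 0.76 without control replicate 2. Dnajc7 rose by 0.53 (limma adjusted p = 0.0351), Dnaja4 by 0.83 (limma adjusted p = 0.0389) and Dnajc28 by 0.91 (limma adjusted p = 0.0463), and without control replicate 2 they rose by 0.69, 0.90 and 1.10. Under median-ratio scaling Dnajb6 and Dnajc7 lost their calls, at 0.47 (limma adjusted p = 0.0706) and 0.40 (limma adjusted p = 0.0716). Without the filter Dnaja4 and Dnajc28 lost theirs (limma adjusted p = 0.0526 and 0.0649), as did Dnajc28 after GC and length correction (limma adjusted p = 0.0570) and with a pseudocount of 0.1 (limma adjusted p = 0.0507). With any library but control replicate 2 left out, limma called 0 of these 29. Of 6 tested other Hsp70 and Hsp110 genes, Hspa12a, a distant Hsp70 relative, rose by 1.07 (limma adjusted p = 0.0335), or 1.13 without control replicate 2. Of 13 chaperonin and prefoldin genes, Vbp1, the prefoldin subunit 3, rose by 0.81 (limma adjusted p = 0.0467), or 1.12 without control replicate 2. Its call ended after GC and length correction, at 0.22 (limma adjusted p = 0.152), under median-ratio scaling, at 0.69 (limma adjusted p = 0.0647), without the filter and with a pseudocount of 0.1. Of 17 mitochondrial folding, import and protease genes, Yme1l1, a protease of the inner membrane, rose by 1.14 (limma adjusted p = 0.0445), or 1.58 without control replicate 2. Its call ended after GC and length correction, at 0.61 (limma adjusted p = 0.0805), under median-ratio scaling, at 1.02 (limma adjusted p = 0.0504), and without the filter (limma adjusted p = 0.0640).

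The genes that heat induces most strongly were low in both groups. Hspa1a and Hspa1b, the inducible cytosolic Hsp70 genes, averaged 0.133 and 0.757 TPM in shKmt2f libraries, against 0.0836 and 0.709 TPM in control libraries. The small heat shock protein genes Hspb1 and Hspb8 averaged 0.414 and 0.170 TPM in shKmt2f libraries, against 0.416 and 0.289 TPM in control libraries. All 4 were under the filter and were not tested. The small heat shock protein gene Hspb6 had 20.4, 19.7, 20.2 and 16.3 TPM in shKmt2f libraries, against 31.2, 31.6 and 30.9 TPM in control libraries, and fell by 0.68 (limma adjusted p = 0.0172, SE 0.12), with or without control replicate 2. Here control replicate 2 stood with the other controls. The call was lost without control replicate 1, control replicate 3 or shKmt2f replicate 1, over protein-coding transcripts alone, where the difference was -0.43 (limma adjusted p = 0.0733), and after GC and length correction, where it was also -0.43 (limma adjusted p = 0.0617). Of 10 tested heat-inducible genes, Chordc1 rose and Serpinh1, the collagen chaperone Hsp47, fell by 0.49 (limma adjusted p = 0.0392), or 0.47 without control replicate 2. Serpinh1 was not called after GC and length correction, at -0.30 (limma adjusted p = 0.131), or without the filter (limma adjusted p = 0.0513). Heat shock factor 1 had 36.1 ± 3.4 TPM in shKmt2f libraries (SD, n = 4) and 41.3 ± 4.0 TPM in control libraries (SD, n = 3), differing by -0.19 on the log2 scale (limma adjusted p = 0.323). Its inhibitor Hsbp1 had 244 ± 13.2 TPM in shKmt2f libraries (SD, n = 4) and 266 ± 25.5 TPM in control libraries (SD, n = 3; limma adjusted p = 0.466).

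**Figure D5:**
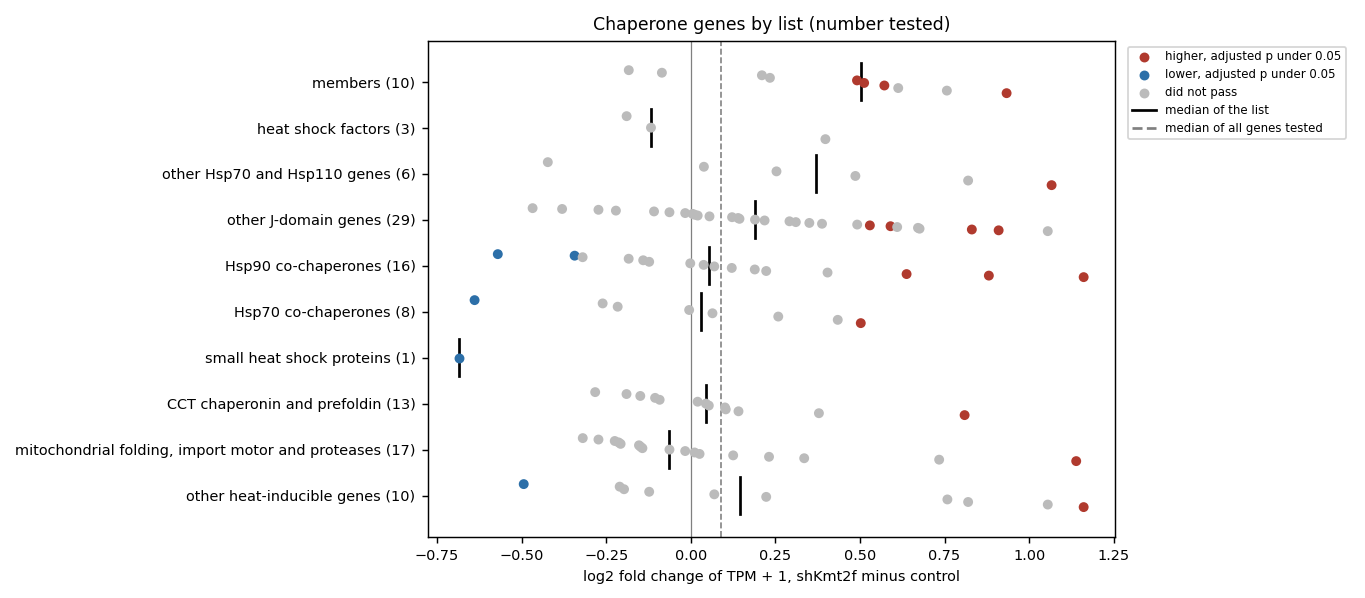
Log2 fold change of TPM + 1, shKmt2f minus control (horizontal axis), of the 10 genes (top row, members) and of the tested genes of 9 chaperone lists, with 1 point per gene, red for called higher, blue for called lower and grey for neither. The black bar of the 10 genes lies at 0.50, the dashed line for all genes at 0.088, and the bars of the other lists lie between -0.68 and 0.37.

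The genes whose profile over the 7 libraries was most like the mean of the 10 were sought among 8805 protein-coding genes of at least 5 TPM, by the root-mean-square difference of centred log2(TPM + 1). Cct4, a subunit of the cytosolic chaperonin, was the nearest, at a difference of 0.0336 log2 units. It had 148, 150, 154 and 144 TPM in shKmt2f libraries, against 98.8, 139 and 109 TPM in control libraries, an order of libraries that the likeness itself chose. Its log2 fold change was 0.38 (limma adjusted p = 0.0736). Pak2, Ppp2r5c, Set and Ube2d3 followed, at differences of 0.0465, 0.0483, 0.0506 and 0.0517 log2 units over the same 7 libraries.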

How the data were processed

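Messenger RNA was measured in 4 shKmt2f and 3 control libraries. Salmon 0.11.3, sleuth 0.30.0 and the build GRCm38.p6 are named in the submitters' processing notes; settings are not given in the sources used here. The authors deposited 1 table per library with TPM per transcript, and identical p-value, q-value and natural log effect columns in all 7, per the file headers. Depth is unknown, since TPM does not keep it, and counting intervals cannot be had; TPM totals lay between 991445 and 992309. TPM was summed per gene. Genes reaching 1 TPM in 3 or more libraries entered limma 3.58.1 (R 4.3.3; trend, robust) on log2(TPM + 1), with Benjamini-Hochberg adjustment over all 12456 genes (0.05). Folds on this scale understate low genes. Shares and ratios were tested by exact permutation, two-sided. Positions and transcript types came from GENCODE (GRCm38), promoters from RefSeq, and pseudogene matches from blastn 2.17.0. The 10 genes, all lists and tests were chosen with earlier results of these data known. Named genes were the 10, up to 4 called genes of each list by smallest adjusted p, or the 2 with the highest mean TPM where none was called, the 5 most like profiles, and Setd1a. Other settings tried were no filter, median-ratio scaling, pseudocount 0.1, protein-coding transcripts only, pseudogenes added to parents, GC and length correction (loess), a replicate block, each library left out and, chosen after seeing the data, sums weighted by length.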

Additional observations from a re-analysis of the deposited data

Results flagged for a closer look

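Of 25 groups of 4 libraries examined with Dixon's test at the 95% level, 1 held a library far from the rest, and chance alone flags about 5%. It was Dnajb1 in the shKmt2f group, where replicate 2, at 21.4 TPM, lay above the other 3 libraries, at 19.2 to 19.3 TPM. Its gap was 0.959 of the group's range, over the test's critical value. That library lies within the control range of 18.8 to 24.5 TPM.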

How the results depend on the processing

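The count of the 10 genes called higher, 4 over all libraries, was 0 under median-ratio scaling, without the filter and, of 9 genes, after GC and length correction. It was 2 with a pseudocount of 0.1, 2 with the replicate block and, of 9 genes, 2 with length-weighted sums. With 1 library left out it ran from 0 to 6, the highest without control replicate 2. Over protein-coding transcripts it stayed 4, with Hsph1 in place of Hspa4, and with pseudogenes added 3. Of the transcripts, 0 to 16 were called with 1 library left out. Of the 94 other chaperone genes, 11 were called higher over all libraries, and 6 under median-ratio scaling, without the filter and after GC and length correction, and 1 to 23 with 1 library left out. Lower calls, 5 over all libraries, numbered 7 under median-ratio scaling, 3 without the filter and over protein-coding transcripts, 1 after GC and length correction, 0 with the replicate block, which ended those of Pih1d1, Nudc, Bag2, Hspb6 and Serpinh1 and the higher call of St13, and 0 to 5 with 1 library left out. The fold change of Dnajb1 ran from -0.16 to 0.021 with 1 library left out, positive only without control replicate 3, and the sign changed for Hsf1 after GC and length correction (0.0088). The cause of these changes was not tested, except that leaving out a library leaves fewer samples. The 5 ratios, of TPM summed over all transcripts, kept their direction with each library left out and with the replicate block. That does not extend to protein-coding transcripts alone. There the log2 fold change was 0.185 for Hsp90aa1 and 0.26 for Hsp90ab1, the reverse of the order over all transcripts (0.61 and 0.23). Shares of the highest coding transcript kept theirs for Hspa4, Hsp90aa1, Dnaja1 and Hspe1, while the other 6 changed sign: Hspa8 was -0.20 points with the replicate block. With 1 library left out Hspa8 ran from -0.20 to 0.23, Hspa9 from -1.40 to 0.68, Hsp90ab1 from -2.83 to 0.68, Hsph1 from -4.02 to 0.74, Hspd1 from -3.47 to 0.072 and Dnajb1 from -0.67 to 4.18 points. Same-numbered libraries of the groups correlated at 0.0597 to 0.0793 in their deviations, and shKmt2f replicate 1 correlated best with control replicate 2 (0.0863), so the numbers are not taken as pairs. TPM keeps no depth, which limits most the transcripts at a few TPM.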
